A study of Mus musculus with 16 samples.

Results

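The 10 genes described here encode subunits of the Polycomb repressive complexes: Ezh1, Ezh2, Eed, Suz12, Jarid2 and Mtf2 of Polycomb repressive complex 2 (PRC2), and Rnf2, Bmi1, Cbx7 and Phc1 of Polycomb repressive complex 1 (PRC1). They were chosen by name, as every array target that carries 1 of these symbols or an older alias of it. Together they had 15 of the 46643 probes of a mouse whole-genome bead array, and they are 10 of the 32089 genes that those probes name. Of the 10 genes, 8 were measured above background on enough arrays to be tested among 15642 genes. The other 2, Ezh1 and Suz12, were not well above background on any of the 16 arrays.

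PRC2 methylates a lysine of histone H3 through Ezh1 or Ezh2, which need Eed and Suz12 for their activity, and Jarid2 and Mtf2 help to bring the complex to its target genes. In PRC1, Rnf2 is the ligase that attaches ubiquitin to histone H2A, Bmi1 is a RING-finger partner of Rnf2, Cbx7 reads the methyl mark left by PRC2, and Phc1 joins PRC1 complexes to each other through its SAM domain. In embryonic stem (ES) cells these complexes are known for holding developmental regulators at a low level.

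The study asked how induced pluripotent stem (iPS) lines made from mouse embryonic fibroblasts (MEFs) with the orphan nuclear receptor Esrrb among their factors compare with ES cells and with the starting fibroblasts. RNA was measured in 8 groups of 2 arrays each. The first held R1 mouse ES cells. Another held the iPS line OSCK, and 4 held the iPS lines OSCE 8, OSCE 13, OSE T8 and OSE T9, written here without the number sign of the labels, which do not spell out the factor letters. The last 2 groups were MEFs with green fluorescent protein (GFP) under the Actin promoter and MEFs with GFP under the Pou5f1 promoter. ES and iPS cells were grown with serum and leukaemia inhibitory factor on MEF feeders treated with mitomycin C, so their RNA may hold feeder RNA, and each iPS group is 1 line. The labels call the 2 arrays of a group biological replicates without saying whether they come from separate cultures. The p-values below therefore measure the spread between these samples.

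All values are log2 of the quantile-normalised intensity unless said otherwise, an error after a mean is the SD of 2 arrays, and an error after a difference is its standard error (SE). A gene was called changed at an adjusted p below 0.05 by limma's moderated test with Benjamini-Hochberg adjustment over all 15642 genes. On each array 35.5 to 38.8% of probes were detected, and the lowest detected level lay between 4.89 and 5.05. The 9 pluripotency markers on the array were all detected in ES cells and in the 5 iPS lines, with summed normalised intensities of 14560 to 28480, against 1 to 4 detected in MEFs with sums of 216 to 241. The lowest sums among the pluripotent groups, 14560 and 14860, were those of OSCE 8. The summed intensity of 12 fibroblast markers was 39620 to 43010 in MEFs and 8634 to 13950 in ES and iPS cells. ES cells, OSCK, OSCE 8 and both MEF types shared 2 slides, while OSCE 13 and the OSE lines shared another 2, so that any difference across these 2 sets cannot be told apart from a difference between slides.

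PRC1 held both the largest difference among these genes and the single gene that was higher in fibroblasts. Cbx7, the chromodomain subunit, read 10.22 and 10.43 in ES cells, 10.38 and 10.48 in OSCK, 9.81 and 9.74 in OSCE 8, 10.33 and 10.25 in OSCE 13, 10.49 and 10.55 in OSE T8, and 10.40 and 10.34 in OSE T9. In Actin-GFP MEFs it read 4.94 and 5.22, and in Pou5f1-GFP MEFs 4.78 and 5.19, with 1 array of each type above background. The pluripotent and fibroblast arrays did not overlap, which held for 65.0% of all genes between MEFs and ES cells and for 41.7% between the iPS lines and MEFs. Within the 2 slides that ES cells and MEFs share, the difference was -5.36 and -5.23. Cbx7 was 39.2-fold lower in MEFs than in ES cells (log2 difference -5.29 ± 0.12, adjusted p = 5.518e-14) and 37.9-fold higher in the 5 iPS lines than in MEFs (5.25 ± 0.084, adjusted p = 3.24e-16). Because 2 of its 4 fibroblast readings were not well above background, both folds rest on values at the floor of the array. In bulk RNA, fewer cells that express a gene and less of its RNA per cell cannot be told apart, for this gene and for those below.

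The promoters of the 3 PRC1 genes with the clearest fibroblast difference are shown because they differ in base composition, with every CG dinucleotide in capitals. Each covers 250 bases before and 50 bases after the RefSeq start on GRCm38.p6, read 5′ to 3′ on the gene's strand: Cbx7 at chr15:79932597-79932896 on the minus strand, Phc1 at chr6:122340178-122340477 on the minus strand, and Bmi1 at chr2:18676768-18677067 on the plus strand.
Cbx7: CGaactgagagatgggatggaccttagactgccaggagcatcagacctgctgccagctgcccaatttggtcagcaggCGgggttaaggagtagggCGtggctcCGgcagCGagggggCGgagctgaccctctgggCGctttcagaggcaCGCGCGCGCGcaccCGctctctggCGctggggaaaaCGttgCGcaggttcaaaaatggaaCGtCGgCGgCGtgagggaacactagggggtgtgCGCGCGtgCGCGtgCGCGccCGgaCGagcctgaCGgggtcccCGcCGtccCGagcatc
Phc1: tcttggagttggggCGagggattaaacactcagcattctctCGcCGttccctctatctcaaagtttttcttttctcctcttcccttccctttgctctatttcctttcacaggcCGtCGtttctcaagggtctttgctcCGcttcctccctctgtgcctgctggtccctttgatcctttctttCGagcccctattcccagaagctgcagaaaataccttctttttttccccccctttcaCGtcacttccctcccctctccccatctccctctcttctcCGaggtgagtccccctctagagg
Bmi1: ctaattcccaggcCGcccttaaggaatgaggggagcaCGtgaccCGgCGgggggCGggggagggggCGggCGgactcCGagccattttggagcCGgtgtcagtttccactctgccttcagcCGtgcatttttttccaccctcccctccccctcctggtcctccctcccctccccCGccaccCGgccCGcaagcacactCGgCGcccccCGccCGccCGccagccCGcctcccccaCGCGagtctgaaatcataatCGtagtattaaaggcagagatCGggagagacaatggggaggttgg
The Cbx7 promoter held 33 CG dinucleotides, the Bmi1 promoter 23 and the Phc1 promoter 9. Over the 32851 mouse promoters in the same RefSeq table the median was 7, with quartiles of 3 and 20. The 12 promoters listed for the 10 Polycomb genes had a median of 23.5 and ranged from 2, at a second start of Mtf2, to 41 at Suz12. Cbx7, with 33 CG dinucleotides, and Phc1, with 9 and so near the median of all promoters, were both lower in MEFs. Bmi1, with 23, was higher.

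Phc1, the polyhomeotic subunit, was also lower in fibroblasts. It read 13.11 and 13.07 in ES cells, 13.26 and 13.08 in OSCK, 12.86 and 12.84 in OSCE 8, 12.63 and 12.58 in OSCE 13, 13.38 and 13.27 in OSE T8, and 13.00 and 12.70 in OSE T9. Actin-GFP MEFs read 10.75 and 10.59, and Pou5f1-GFP MEFs read 11.14 and 11.05. All 4 fibroblast arrays lay below all 12 others, yet still far above background. Phc1 fell 4.63-fold in MEFs against ES cells (-2.21 ± 0.11, adjusted p = 1.38e-10) and was 4.22-fold higher in the iPS lines than in MEFs (2.08 ± 0.073).

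Bmi1, also known as Pcgf4, moved the other way. Its brighter probe read 6.80 and 6.63 in ES cells and 6.56 to 6.88 on the 10 iPS arrays, against 8.00 and 8.02 in Actin-GFP MEFs and 7.95 and 7.90 in Pou5f1-GFP MEFs. The fibroblast arrays lay above all others with no overlap. Bmi1 was 2.38-fold higher in MEFs than in ES cells (1.25 ± 0.098, adjusted p = 3.239e-08) and 2.32-fold lower in the iPS lines than in MEFs (-1.22 ± 0.067, adjusted p = 3.011e-10). The second Bmi1 probe, listed on the array as PCGF4, read 7.24 to 7.58 in MEFs and 6.13 to 6.65 elsewhere, again with no overlap.

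Rnf2, the catalytic RING-finger subunit, showed no difference beyond its spread. Its ES arrays read 6.10 and 7.11, which spans the fibroblast range of 6.33 to 6.51 and overlaps with the iPS range of 5.77 to 6.70. The difference of MEFs from ES cells was -0.19 ± 0.26 (95% confidence interval -0.75 to 0.37, adjusted p = 0.562), and it was 0.28 on the first slide and -0.66 on the second. Without the second ES array it turned to 0.31 (adjusted p = 0.377). Without the first ES array Rnf2 was called lower in MEFs (-0.69, adjusted p = 0.0464), so this reading rests on how far the ES arrays lie apart.

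In PRC2, 4 of the 6 genes could be tested, and all 4 were lower in MEFs than in ES cells. Mtf2, the Polycomb-like subunit that binds DNA rich in CG dinucleotides, read 11.87 and 11.90 in ES cells, 11.43 and 11.41 in OSCK, 11.06 and 10.95 in OSCE 8, 11.30 and 11.18 in OSCE 13, 11.29 and 11.33 in OSE T8, and 11.34 and 11.09 in OSE T9. Actin-GFP MEFs read 9.35 and 9.20, and Pou5f1-GFP MEFs 9.90 and 9.62. ES arrays were the highest, the iPS arrays came next and the MEF arrays were the lowest, with no overlap between these 3 sets. Mtf2 fell 5.17-fold in MEFs against ES cells (-2.37 ± 0.11, adjusted p = 7.877e-11).

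Eed, the subunit that binds the methyl mark and stimulates the enzyme, read 11.07 and 11.21 in ES cells, 10.68 to 11.20 on the 10 iPS arrays, 9.27 and 9.42 in Actin-GFP MEFs, and 9.10 and 9.22 in Pou5f1-GFP MEFs. Its fibroblast arrays did not overlap with the rest. Eed was 3.70-fold lower in MEFs than in ES cells (-1.89 ± 0.12, adjusted p = 4.583e-09) and 3.17-fold higher in the iPS lines than in MEFs (1.66 ± 0.085). In the order of group means, MEFs came last at 9.16 ± 0.085 and 9.35 ± 0.11, while the 6 pluripotent groups lay between 10.78 ± 0.12 and 11.14 ± 0.098, with no call of any line against ES cells.

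Jarid2, a JmjC-family protein without demethylase activity that recruits PRC2, lay closer to background, with 6.29 and 6.76 in ES cells and 5.29 to 6.56 on the iPS arrays. The 4 MEF arrays read 4.36 to 4.78 and none was above background. Its levels in MEFs are therefore bounds: Jarid2 was at least 3.06-fold lower in MEFs than in ES cells (measured difference -1.99 ± 0.23, adjusted p = 2.257e-06) and at least 2.12-fold higher in the iPS lines than in MEFs. A second Jarid2 probe, listed under the older name JMJ, was above background on 2 of 16 arrays and gives no comparison.

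Ezh2, the enzyme of PRC2 in dividing cells, had the smallest of the PRC2 differences from fibroblasts and the widest spread among the iPS lines. It read 8.97 and 9.13 in ES cells, 10.02 and 9.99 in OSCK, 9.51 and 9.45 in OSCE 8, 9.32 and 9.29 in OSCE 13, 9.55 and 9.47 in OSE T8, and 9.17 and 8.87 in OSE T9. MEFs read 7.98 and 8.03 with Actin-GFP, and 8.25 and 8.37 with Pou5f1-GFP, below every other array. Ezh2 was 1.85-fold lower in MEFs than in ES cells (-0.89 ± 0.10, adjusted p = 2.129e-06) and 2.47-fold higher in the iPS lines than in MEFs (1.31 ± 0.070, adjusted p = 2.073e-10). With each line's mean taken as 1 replicate, the difference between MEFs and ES cells no longer passed (adjusted p = 0.0900). The second Ezh2 probe was not above background on any of the 16 arrays. Summed intensities of 12 proliferation markers were 7384 to 8684 in MEFs, 15540 to 16200 in ES cells and 17770 to 19950 in the iPS lines. Of the 12, 9 were called lower and 2 higher in MEFs than in ES cells, where 30.3% of all genes were lower and 30.7% higher. In the iPS lines 2 were called higher than in ES cells (10.8% of all genes) and 10 were not called. From the highest Ezh2 down, the sums were 19630 to 19930 in OSCK, 19060 to 19950 in OSE T8 and 19070 to 19900 in OSCE 8. They were 17770 to 18180 in OSCE 13 and 18280 to 18420 in OSE T9, which was level with ES cells in Ezh2. The part of these markers in the Ezh2 result was not tested.

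The Ezh2 promoter is shown because it held 1 of the E2F motif cores that were searched, the motif of the cell-cycle E2F factors, here in capitals. It lies at chr6:47594981-47595280 on the minus strand of GRCm38.p6.
Ezh2: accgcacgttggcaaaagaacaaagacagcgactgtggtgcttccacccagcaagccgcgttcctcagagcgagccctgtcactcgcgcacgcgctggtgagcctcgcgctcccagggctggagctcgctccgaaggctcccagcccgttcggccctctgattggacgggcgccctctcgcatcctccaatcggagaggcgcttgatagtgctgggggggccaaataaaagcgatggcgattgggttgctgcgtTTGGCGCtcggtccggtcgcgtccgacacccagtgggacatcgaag
The motif letters TTGGCGC were searched on both strands and occurred in 2.45% of the 32851 promoters, and among the 12 Polycomb promoters only in this one. A second E2F core, TTCCCGC, occurred in 4.60% of all promoters and in 1 of the 12, that of Suz12. The Esrrb half-site core AAGGTCA (4.72% of all promoters) and the octamer core TGCAAAT (4.02%) were in none of the 12. These matches describe the letters in these windows only.

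Counted over the set, 6 of the 8 tested genes were lower in MEFs than in ES cells, 1 was higher and Rnf2 was not called. Jarid2, among the 6, was not detected in MEFs and entered the test through the other groups, so it could hardly be called higher there. Of all 15642 genes, 61.0% were called in this comparison (30.7% higher, 30.3% lower). The median difference of the 8 genes was -1.94 against -0.02 for all genes tested. Jarid2 entered that median at its measured -1.99, although its MEF level is a bound. Between the 5 iPS lines and MEFs, 6 genes were called higher and 1 lower, where 70.0% of all genes were called (35.0% in each direction). The ES and iPS comparisons share the same 4 MEF arrays and are therefore not independent of each other. The limit on Jarid2 holds for both.

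**Figure D1:**
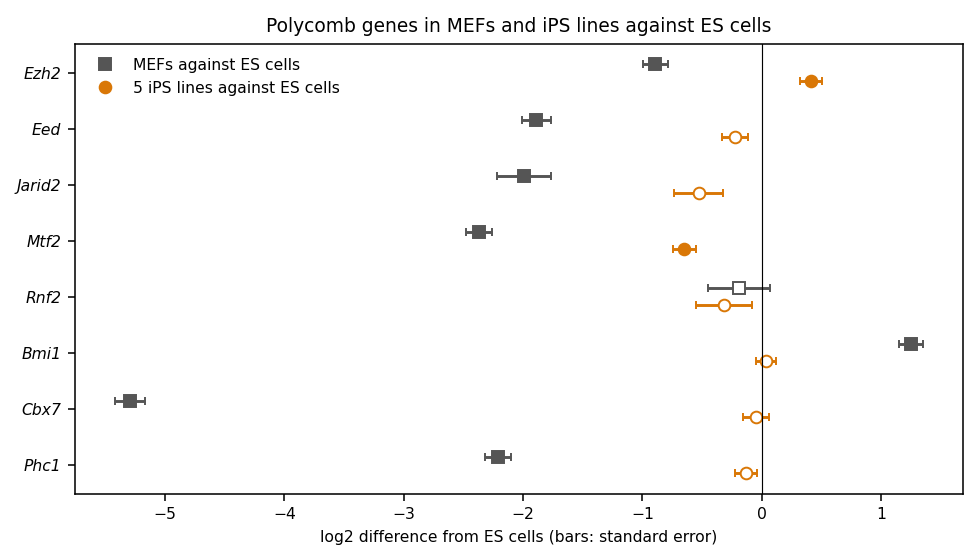
Difference from ES cells (log2, horizontal axis, 0 meaning no difference) of the 8 tested Polycomb genes in MEFs and in the 5 iPS lines together; squares and circles are fitted differences, filled where called, and bars are standard errors. In MEFs Cbx7 lies at -5.29 and Bmi1 at 1.25, while in the iPS lines all 8 genes lie between -0.65 and 0.41.

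Against ES cells, the 5 iPS lines together differed in 2 of the 8 genes, where 22.0% of all genes were called (10.8% higher, 11.2% lower). Ezh2 was 1.33-fold higher (0.41 ± 0.091, adjusted p = 0.0039) and Mtf2 1.57-fold lower (-0.65 ± 0.097, adjusted p = 0.0002). Cbx7 differed by -0.05 with a 95% interval of -0.28 to 0.19, Phc1 by -0.13 (adjusted p = 0.392), Bmi1 by 0.04 (adjusted p = 0.837) and Eed by -0.22 (adjusted p = 0.184). Jarid2 (-0.53 ± 0.21, adjusted p = 0.0844) and Rnf2 (-0.31 ± 0.23, adjusted p = 0.412) did not pass the threshold, although Jarid2 did with the replicate number as a block (adjusted p = 0.0467). Without the second ES array the Rnf2 difference turned to 0.19 (adjusted p = 0.731). With each line's mean taken as 1 replicate neither call was made (adjusted p = 0.860 for Ezh2 and 0.391 for Mtf2), and Ezh2 was not called without the first ES array (adjusted p = 0.102) or with arrays scaled by their medians (adjusted p = 0.0942).

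Line by line, Mtf2 was called lower than in ES cells in 5 of 5 lines. OSCK differed by -0.47 (adjusted p = 0.0176) and OSCE 8 by -0.88 (adjusted p = 0.0001). OSCE 13 differed by -0.65 (adjusted p = 0.0017), OSE T8 by -0.58 (adjusted p = 0.0037) and OSE T9 by -0.67 (adjusted p = 0.0013). In OSCK the call was lost without either ES array or either OSCK array, with differences of -0.45 to -0.49. The second Mtf2 probe, which was above background on all 16 arrays, did not bear this out. It read 9.62 and 9.68 in ES cells against 9.06 to 9.92 on the iPS arrays, and at the level of single probes it differed by -0.26 ± 0.14 over the 5 lines (adjusted p = 0.242, 21551 probes tested) and by -0.53 ± 0.19 in OSCE 8 (adjusted p = 0.0541). In OSCK it went the other way, at 0.07 (adjusted p = 0.879). ES and iPS arrays thus overlapped for this probe and not for the brighter one, while for each of the probes every MEF array lay below all others.

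Ezh2 was called higher than in ES cells in 3 lines: by 1.94-fold in OSCK (0.95 ± 0.12), by 0.43 in OSCE 8 (adjusted p = 0.0146) and by 0.46 in OSE T8 (adjusted p = 0.0115). In OSCE 13 it differed by 0.26 (adjusted p = 0.159) and in OSE T9 by -0.03. Within the slides that OSCK shared with ES cells the Ezh2 difference was 1.04 on the first slide and 0.86 on the second. Without the first ES array the Ezh2 calls in OSCE 8 (adjusted p = 0.123) and OSE T8 (adjusted p = 0.107) were lost, as they were without the first OSCE 8 array (adjusted p = 0.0883) and the first OSE T8 array (adjusted p = 0.0730). Both were also lost under median scaling (adjusted p = 0.169 in OSCE 8 and 0.184 in OSE T8) and with the mean of both probes (adjusted p = 0.235 and 0.198). The second Ezh2 probe lay at background on all 16 arrays, so that mean shrinks any Ezh2 difference and cannot decide. Phc1 was called lower in OSCE 13 (-0.49 ± 0.12, adjusted p = 0.0111), which lay on other slides than the ES cells, but not without the first ES array (adjusted p = 0.0696), without the second OSCE 13 array (adjusted p = 0.0762) or under median scaling (adjusted p = 0.0731).

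OSCE 8 had the most calls against ES cells, among these genes as over all genes. Besides Ezh2 and Mtf2, Cbx7 was lower (-0.55 ± 0.14, adjusted p = 0.0095) and Jarid2 was lower (-0.97 ± 0.27, adjusted p = 0.0144), which makes 1 higher and 3 lower of 8 genes, where 24.2% of all genes were called (11.6% higher, 12.6% lower). Jarid2 was not called when genes of low signal were kept in the test (adjusted p = 0.0631), without the second ES array (adjusted p = 0.139) or without the first OSCE 8 array (adjusted p = 0.153). It was also lost under median scaling (adjusted p = 0.0580) and with the mean of its probes (adjusted p = 0.0532). The second Jarid2 probe was above background on 2 of 16 arrays, so that mean shrinks the difference by itself. Cbx7 was not called without the second ES array (adjusted p = 0.0968) or the second OSCE 8 array (adjusted p = 0.0660). In OSCK 1 of 8 was higher and 1 lower, where 16.9% of all genes were called (8.13% higher, 8.82% lower). In OSCE 13 2 of 8 were lower, where 19.4% of all genes were called (9.76% higher, 9.67% lower). OSE T8 had 1 higher and 1 lower gene, where 20.7% of all genes were called (10.4% higher, 10.3% lower), and OSE T9 had 1 lower gene, where 20.4% were called (10.7% higher, 9.66% lower). The summed pluripotency markers were lowest in OSCE 8 among these lines. Of 8 macrophage markers 6 were higher and 1 lower in OSCE 8 than in ES cells, with summed intensities of 1907 to 1932 against 741 to 777. The part of either list in the Cbx7 and Jarid2 values of OSCE 8 was not tested.

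**Figure D2:**
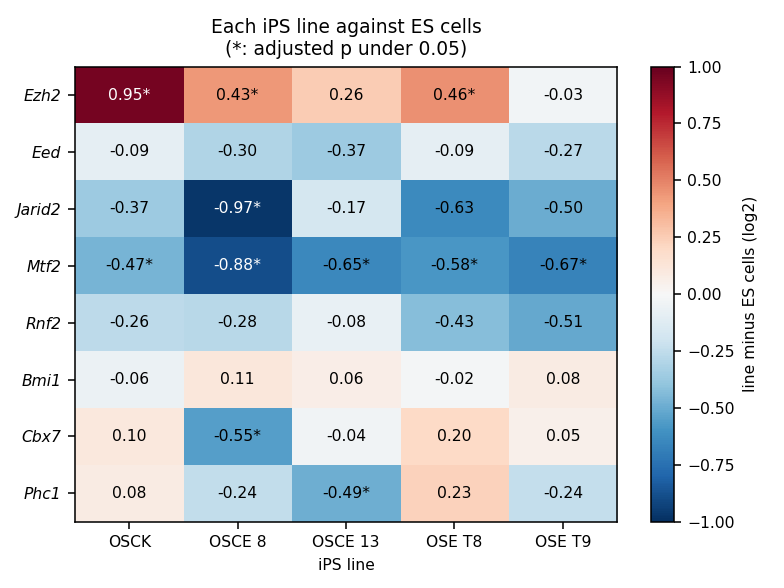
Difference from ES cells (log2, colour scale and printed value) of the 8 tested Polycomb genes (rows) in each of the 5 iPS lines (columns), with an asterisk where the gene was called. Mtf2 is below 0 and called in every line, Ezh2 ranges from -0.03 in OSE T9 to 0.95 in OSCK, and OSCE 8 has the lowest Cbx7, at -0.55. All columns share the same ES arrays.

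Among the 5 iPS lines, limma's moderated F test called 3 of the 8 genes. This was close to the share over all genes, of which 38.9% were called. Ezh2 spanned 0.98 log2 units, from 9.02 ± 0.21 in OSE T9 to 10.004 ± 0.019 in OSCK (adjusted p = 0.000181). Phc1 ran from 12.60 ± 0.04 in OSCE 13 to 13.32 ± 0.08 in OSE T8 (adjusted p = 0.00189), and Cbx7 from 9.77 ± 0.05 in OSCE 8 to 10.52 ± 0.045 in OSE T8 (adjusted p = 0.0043). The end lines of the Ezh2 and Cbx7 ranges lay on different slides, and line and slide cannot be told apart there. Bmi1 was the steadiest, with line means between 6.66 and 6.83.

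Comparisons within a slide set avoid the difference between slides. OSCE 8 against OSCK, which differ in 1 letter of the factor code, gave 3 lower genes of 8, where 17.4% of all genes were called (8.57% higher, 8.84% lower). Cbx7 was lower in OSCE 8 (-0.66 ± 0.14, adjusted p = 0.0041), with within-slide differences of -0.57 and -0.74. So was Ezh2 (-0.52 ± 0.12, adjusted p = 0.0059), by -0.51 and -0.54 within slides. Mtf2 was lower too (-0.42 ± 0.13, adjusted p = 0.0318), and here its second probe gave the same direction (-0.60 ± 0.19, adjusted p = 0.0409). Leaving out any 1 of the 4 arrays ended the Mtf2 call, with differences of -0.36 to -0.47. Ezh2 was not called without the second OSCE 8 array or with arrays scaled by their medians (adjusted p = 0.0548), while Cbx7 was called each time. Without the first OSCK array Jarid2 was called lower as well (-0.999, adjusted p = 0.0331). Phc1 differed by -0.32 (adjusted p = 0.0919) and was called lower once the slide was a block (adjusted p = 0.0360).

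In the other set, the OSE lines against OSCE 13 gave 1 call, Phc1, which was higher in the OSE lines (0.48 ± 0.11, adjusted p = 0.0047, and 0.0606 without the second OSCE 13 array), where 20.1% of all genes were called (10.2% higher, 9.98% lower). OSE T8 and OSE T9, which carry the same factor letters, differed in Ezh2 (0.49 ± 0.12, adjusted p = 0.0142) and in Phc1 (0.47 ± 0.12, adjusted p = 0.0205), both higher in OSE T8, where 12.5% of all genes were called (5.40% higher, 7.09% lower). Under median scaling the Phc1 difference of the OSE lines from OSCE 13 was 0.31 and was not called (adjusted p = 0.129), nor was Ezh2 between OSE T8 and OSE T9 (0.56, adjusted p = 0.0702). The mean of both Ezh2 probes did not pass there either (0.25, adjusted p = 0.0774), but the second probe, at background, shrinks that difference by itself. Neither call held without the first OSE T8 array (adjusted p = 0.0818 for Ezh2 and 0.114 for Phc1), without the second (adjusted p = 0.0506 and 0.0588) or without the second OSE T9 array (adjusted p = 0.123 and 0.168).

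The MEF types differed in 2 of the 8 genes, where 11.5% of all genes were called (5.33% higher, 6.17% lower). Mtf2 was lower in Actin-GFP than in Pou5f1-GFP MEFs (-0.48 ± 0.13, adjusted p = 0.0200), and so was Phc1 (-0.43 ± 0.12, adjusted p = 0.0356). Summed intensities of 8 macrophage markers also differed, at 8215 to 8472 in Actin-GFP MEFs against 2075 to 2097 in Pou5f1-GFP MEFs, and their part in these differences was not tested. Neither call was made when arrays were scaled by their medians alone (adjusted p = 0.129 and 0.351), without the second Actin-GFP array (adjusted p = 0.175 and 0.252) or without the first Pou5f1-GFP array (adjusted p = 0.248 and 0.221), and the Phc1 call was lost whichever of the 4 arrays was left out.

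Across the 8 group means, 6 of the 8 genes were positively correlated, with pairwise Pearson correlations of 0.744 to 0.990 among Ezh2, Eed, Jarid2, Mtf2, Cbx7 and Phc1. Bmi1 ran opposite to each of them (-0.996 to -0.900), and Rnf2 followed none (-0.235 to 0.175). These values describe the same 16 arrays, in which the MEFs stand apart from the other groups. Among the pluripotent groups these genes did not all move together: OSCK was above ES cells in Ezh2 (0.95) and below in the brighter Mtf2 probe (-0.47). The genes most like each member over the 8 means were Gdf3, Platr10 and Dctpp1 for Cbx7 (0.9997 to 0.9986), Clns1a, Gpr19 and 2610318N02Rik for Phc1 (0.998 to 0.993), and Slc29a4, Ccdc92 and Mrpl15 for Mtf2 (0.997 to 0.991). For Ezh2 they were Mcm6, a subunit of the replicative helicase, Mad2l1, a spindle checkpoint protein, and Wbp11 (0.981 to 0.976). For Eed they were Rrp9, Farsb and Dyrk3 (0.998 to 0.996), for Jarid2 Abcc4, Srfbp1 and Dph5 (0.992 to 0.985), and for Rnf2 Il4i1, Slco2a1 and Cfap45 (0.962 to 0.950). For Bmi1 the nearest were Slc25a29 and A130082M07RIK (both 0.998), and the third carried no usable name.

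Of 33 other Polycomb genes on the array, 31 were tested, and their directions were split. In MEFs against ES cells 11 were higher, 11 were lower and 9 were not called, where 30.7% of all genes were higher and 30.3% lower. Their median was -0.215. Of the other PRC2 genes 1 was higher and 3 were lower among 6 tested, and of the other PRC1 genes 9 were higher and 6 lower among 20. The variant PRC1 subunits L3mbtl2 (-2.96 ± 0.15) and Pcgf6 (-1.95 ± 0.11) fell furthest in MEFs, followed by the PRC2 cofactor Epop (-1.67 ± 0.12) and the PRC1 subunit Rybp (-1.13 ± 0.12). Paralogs of the members went in both directions. Higher in MEFs were Cbx6 by 1.33 ± 0.11, Phc2 by 0.84 ± 0.095 and Cbx8 at least 1.41-fold, while Pcgf6, a paralog of Bmi1, was lower. Cbx6 read 10.40 ± 0.10 and 10.50 ± 0.10 in the MEF types and 9.12 ± 0.06 in ES cells, and Phc2 10.40 ± 0.02 and 10.57 ± 0.01 against 9.65 ± 0.14. Cbx7 and Phc1 were lower in MEFs while Cbx6, Cbx8 and Phc2 were higher.

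**Figure D3:**
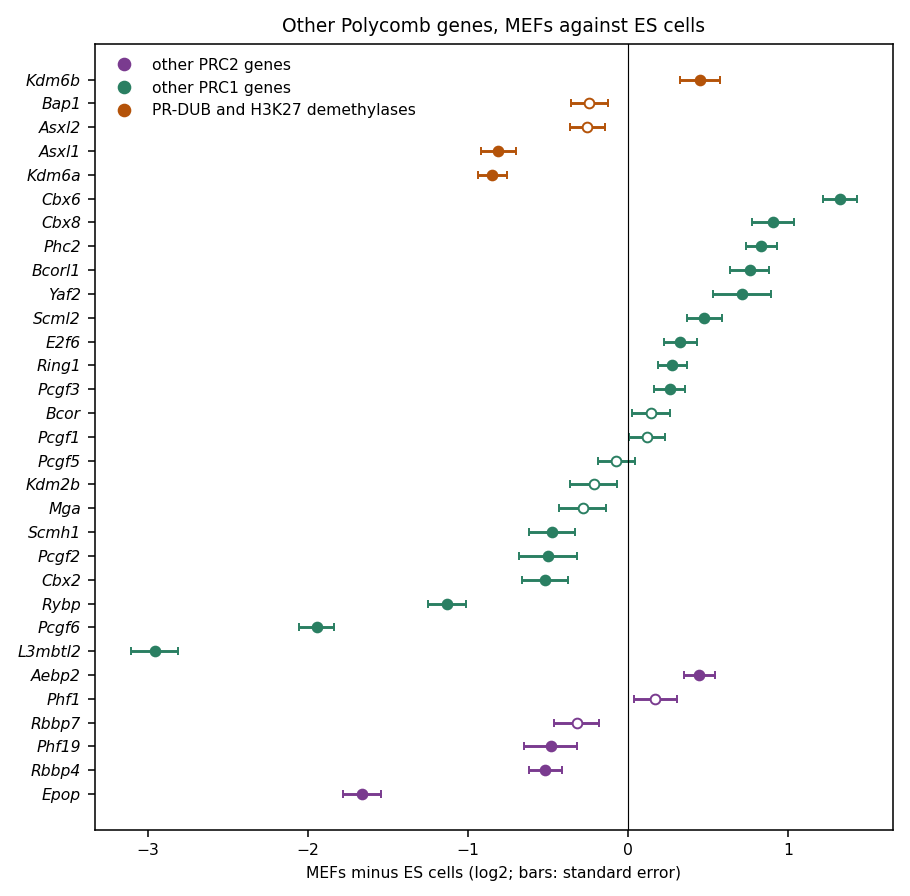
Difference of MEFs from ES cells (log2, horizontal axis) for the 31 other tested Polycomb genes, coloured by complex, filled where called, with bars for the standard error. L3mbtl2 lies lowest at -2.96 and Cbx6 highest at 1.33.

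In the 5 iPS lines against ES cells, 8 of these 31 genes were higher, 1 was lower and 22 were not called, where 10.8% of all genes were higher and 11.2% lower. The CpG-binding PRC1 subunit Kdm2b (0.54), Pcgf6 (0.47), Cbx6 (0.41) and Aebp2 (0.41) were higher in all 10 iPS arrays than in both ES arrays, and 13.9% of all genes had no overlap between these arrays. In OSCE 8 the SAM-domain protein Scml2 read 6.94 ± 0.08 against 5.10 ± 0.16 in ES cells (1.84 ± 0.12), and Phf19, an Mtf2 paralog, was lower (-0.91 ± 0.19). Against OSCK, OSCE 8 was higher in Scml2 (1.78 ± 0.12) and lower in Epop (-1.12 ± 0.14) and Phf19 (-1.02 ± 0.19). From OSCE 13 to the OSE lines 10 of the 31 genes were lower and 1 was higher, where 9.98% of all genes were lower and 10.2% higher.

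Of 38 listed genes known from other work as Polycomb targets in ES cells, 25 were tested. A target at background in ES cells entered the test only through groups where it was detected. The counts below therefore lean towards higher calls against ES cells. In MEFs 14 were higher than in ES cells, 2 were lower and 9 were not called, where 30.7% of all genes were higher and 30.3% lower. The median was 0.725 against -0.02 for all genes. The neural factor Zic1 (3.58 ± 0.10), the homeobox genes Hoxc8 (3.18 ± 0.10) and Msx1 (2.86 ± 0.12) and the endoderm factor Gata6 (3.04 ± 0.12) rose most. Cdkn2a, the cell-cycle inhibitor locus that Bmi1 is known to repress, was lower in MEFs (-1.15 ± 0.13), where Bmi1 was higher. In the iPS lines Cdkn2a read 10.29 to 10.86 as line means against 8.86 in ES cells, 3.18-fold higher (1.67 ± 0.12, adjusted p = 1.018e-07), where Bmi1 differed by 0.04. Between the MEF types Cdkn2a was higher with Actin-GFP (0.88 ± 0.16), where Bmi1 differed by 0.08 and was not called. A link between Bmi1 and Cdkn2a was not tested. Over the 5 lines 6 targets were higher than in ES cells, 3 were lower and 16 were not called, where 10.8% of all genes were higher and 11.2% lower.

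In OSCE 8, 8 of these targets were higher and 5 lower than in ES cells, where 11.6% of all genes were higher and 12.6% lower, the most calls over all genes of any line. Gata6 read 7.32 ± 0.09 there, against 5.24 in ES cells and 5.24 ± 0.16 in OSCK, and the trophectoderm and hindgut factor Cdx2 read 7.34 ± 0.12 against 5.50 ± 0.03 and 5.51 ± 0.18. Against OSCK, 6 of the 25 targets were higher in OSCE 8 and none was lower by limma (2 were lower at an unadjusted p below 0.05), where 8.57% of all genes were higher and 8.84% lower. The higher genes were Gata6 (2.08 ± 0.14), Cdx2 (1.83 ± 0.13), the endoderm factors Foxa2 (at least 1.96-fold) and Sox17 (at least 1.5-fold), and 2 further genes. Foxa2 and Sox17 were not detected in ES cells or OSCK and passed the filter through other groups, OSCE 8 among them. They could hardly be called lower in OSCE 8, so the split of directions is no test. The Polycomb genes Cbx7, Ezh2 and Mtf2 were lower in the same comparison. Between OSE T8 and OSE T9, Gata6 (0.83), Cdx2 (0.42), and Foxa2 and Sox17, each detected on 1 array, were also higher in OSE T8. Another 2 targets were lower, where 5.40% of all genes were higher and 7.09% lower. Ezh2 (0.49) and Phc1 (0.47) were higher in OSE T8 too. A link between the targets and the Polycomb genes was not tested. Whether the endodermal genes and the Polycomb genes moved in the same cells cannot be told from bulk RNA.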

How the data were processed

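The 16 arrays (MouseWG-6 version 1.1, 500 ng of RNA each per the labels' protocols) were exported by the authors from BeadStudio 3.2.6 without normalization, per the file headers. The deposited table holds, per probe and array, a mean intensity on a linear scale, a detection score given as a fraction near 1 for bright probes, and a count of beads (median 37, fewest 5). Background subtraction is not given in the sources used here. A table of normalised intensity values that the authors also deposited was not used, because no match of its probe names to genes was made. Precision is limited by the 2 arrays per group.

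From the intensities, limma 3.58.1 in R 4.3.3 gave normexp background correction guided by detection (offset 16), quantile normalization and log2 values. Each gene took its brightest probe, and 9099 genes had more than 1. A gene was tested if that probe was detected (detection p below 0.01) on at least 2 of 16 arrays. The 34325 target names were matched to RefSeq, 16079 by symbol and 6653 by an older name, and 11593 were kept as deposited. One mean per group was fitted over all 8 groups (8 residual degrees of freedom) with moderated tests and Benjamini-Hochberg adjustment within each comparison. A gene not detected on any array of one side has a bound, the bright side's mean over the dim side's detection floor. Scripts were tested on simulated data.

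All 10 members and their probes are named. Of the other Polycomb genes and targets, up to 4 called genes per direction and comparison with the largest change and no overlap between arrays are named, plus the 3 genes most correlated with each member. Members and lists were chosen with earlier results of these data known. Replicate numbers follow the slides: deviations of same-numbered arrays correlated at 0.0985 to 0.431 over 28 pairs of groups, and 27 of 28 exceeded 0.1. The rule for a block in the main fit asked for all 28, so the block was kept as an alternative. Alternatives covered the offset, scaling, filter, probe choice, slide or replicate block, 1 mean per line and leaving out each array.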

Additional observations from a re-analysis of the deposited data

Results flagged for a closer look

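Lines made with related factor sets differed in 6 values, each by a test of the difference itself (limma, adjusted p below 0.05) on 2 arrays a line. OSCE 8 lay below OSCK in Ezh2 by a log2 difference of -0.52, in Mtf2 by -0.42 and in Cbx7 by -0.66, with no overlap between the arrays of these 2 lines for the 3 genes, as for 56.5% of all genes. The OSE lines lay above OSCE 13 in Phc1 by 0.48, a call that was lost with arrays scaled by their medians (0.31, adjusted p = 0.129). OSE T8 lay above OSE T9 in Ezh2 by 0.49 and in Phc1 by 0.47, although the labels give these 2 lines the same factor letters. Median scaling also ended the Ezh2 calls between OSCE 8 and OSCK (-0.54, adjusted p = 0.0548) and between OSE T8 and OSE T9 (0.56, adjusted p = 0.0702). Of the 6 calls, only that of Cbx7 held whichever array was left out.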

How the results depend on the processing

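No called difference of a Polycomb gene changed sign under the alternatives tried. Differences that were called neither time changed sign 49 times, 7 of them with all arrays kept and 42 with 1 array left out. The latter include Rnf2 without the second ES array (to 0.31 in MEFs and 0.19 in the iPS lines against ES cells). Of the values for single genes with all arrays kept, 840 stayed on the same side of the threshold, 20 lost a call and 4 gained one. The number of Polycomb genes called moved by over 1.5 times as follows. With arrays scaled by their medians it fell to 1 for the 5 iPS lines against ES cells, 2 for OSCE 8, 1 for OSCE 13 and 1 for OSE T8 against ES cells, 0 for the OSE lines against OSCE 13, 1 for OSE T8 against OSE T9 and 0 between the MEF types. With the mean of all probes of a gene it was 1 for the iPS lines, 1 for OSCK, 2 for OSCE 8 and 1 for OSE T8 against ES cells, and 1 for OSE T8 against OSE T9. That mean shrinks any Ezh2 or Jarid2 difference, as the second probe of each lay at or near background. With each line's mean as 1 replicate it was 0 for the iPS lines against ES cells, where calls over all genes went from 3449 to 111, and calls over all genes for MEFs against ES cells went from 9540 to 5023. Median scaling took OSE T8 against OSE T9 from 1953 to 1036 over all genes. With a replicate block 3 genes were called for the iPS lines against ES cells (Jarid2 added, adjusted p = 0.0467), 4 for OSCE 8 against OSCK (Phc1 added, adjusted p = 0.0321) and 4 among the lines, and the block changed no call of any other comparison of these genes. With OSCK and OSCE 8 as the only lines, chosen after seeing the data, 2 genes were called against ES cells and 7 against MEFs.

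Leaving out 1 array at a time gave 7 to 8 calls for MEFs against ES cells, 7 for the iPS lines against MEFs, 1 to 3 for the iPS lines against ES cells, 1 to 2 for OSCK, 2 to 4 for OSCE 8, 1 to 2 for OSCE 13, 1 to 2 for OSE T8 and 1 to 2 for OSE T9 against ES cells, 1 to 4 for OSCE 8 against OSCK, 0 to 1 for the OSE lines against OSCE 13, 0 to 2 for OSE T8 against OSE T9, 0 to 2 between the MEF types and 2 to 4 among the lines. A lone array was assumed to vary like the other groups. The authors' normalised table was not run as an alternative. The causes of these shifts were not tested. Ezh1, Suz12 and Jarid2 in MEFs lie at background, so their differences are not detectable or are bounds.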
